A study of Mus musculus with 6 samples.

Results

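The neurons described here are excitatory cells of mouse hippocampus libraries, chosen by the measured levels of 4 genes, Tshz2, Vwc2l, Tshz3 and Sgcd, which together stood above the marker genes of the dentate gyrus and of the fields CA1 and CA3. A droplet barcode, which stands for 1 captured cell, was considered if it held at least 3000 unique molecular identifiers (UMIs, counted transcripts) and at most 20% mitochondrial UMIs. It was called excitatory with at least 2 UMIs of the vesicular glutamate transporters Slc17a7 and Slc17a6 together and at most 1 UMI of the GABA-synthesis genes Gad1 and Gad2. Counts were scaled to 10000 UMIs per barcode and log-transformed, and the mean was taken over 4 genes for each of 4 sets. The sets were Prox1, Glis3, Rfx3 and C1ql2 for the dentate gyrus (DG), Mpped1, Fibcd1, Wfs1 and Man1a for CA1, Grik4, Nectin3, Cpne4 and Iyd for CA3, and the 4 genes above. Barcodes were taken where the mean of Tshz2, Vwc2l, Tshz3 and Sgcd was the highest, by at least 0.2 over the next set. This chose 3626 of 15409 excitatory barcodes (23.5%) and of 50466 barcodes in all (7.19%). They are called the Tshz2/Vwc2l neurons here.

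The study compared elderly mice given 2% sevoflurane, an inhaled general anaesthetic, for 6 h with mice given air, and took the hippocampus 24 h later. There were 3 libraries from air (Control) and 3 from sevoflurane (Sevoflurane), numbered 1 to 3 in each group. Tissue of both groups was digested with collagenase and stored frozen as a cell suspension before capture with a 10x Genomics kit, per the labels. The labels give no strain, sex or exact age, and do not state whether tissue next to the hippocampus was included. They speak of 6 mice without tying each library to an animal, so the tests weigh a difference only against the variation among these 6 libraries.

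The retrohippocampal region lies between the hippocampus and the neocortex and comprises the subiculum, presubiculum, parasubiculum and entorhinal cortex. Its excitatory neurons carry cortical input into the hippocampus and hippocampal output to cortical and subcortical targets. Tshz2 and Tshz3 encode zinc finger transcription factors of the teashirt family. Vwc2l encodes a secreted protein with von Willebrand factor C domains, a domain found in proteins that bind bone morphogenetic proteins. Sgcd encodes delta-sarcoglycan, a membrane subunit of the dystrophin-associated complex.

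The libraries held 7068 to 9795 barcodes and 54426522 to 70741809 UMIs, and no pair of libraries shared more than 0.333% of barcodes. No barcode was shared between the Tshz2/Vwc2l neurons of any pair. In sex-linked genes Sevoflurane 1 differed from the rest. Xist in its Tshz2/Vwc2l neurons stood at 1195 counts per 1e6 UMIs (CPM), against 0.257 to 1.26 CPM in the other libraries. The Y-linked Ddx3y stood at 0.147 CPM there, against 36.8 to 57.6 CPM. Its tissue was female by these genes, and that of the other libraries was male. The library Sevoflurane 2 stood apart in size, with 400 Tshz2/Vwc2l neurons and 3906075 summed UMIs, against 608 to 703 neurons and 6706989 to 8708397 UMIs elsewhere. Results are therefore also given without these libraries.

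The rule genes are described first, with no test, because they chose the cells. Tshz2 was detected in 85.4% of the Tshz2/Vwc2l neurons, Sgcd in 80.8%, Tshz3 in 79.2% and Vwc2l in 56.1%, at a median of 10012 UMIs per cell. In the DG class, gated in the same way with its own set highest, Tshz2 was detected in 10.3% of barcodes and Vwc2l in 3.43%, at a median of 7815 UMIs. Sgcd did not separate the cells by detection, since 84.7% of the CA1 class and 80.4% of the CA3 class also held a UMI of it. All 4 genes were found in 30.1% of the Tshz2/Vwc2l neurons, and 334 of them (9.21%) held neither Tshz2 nor Vwc2l. The 273 cells just inside the threshold, with a lead of up to 0.3, had a median set mean of 0.864. The 324 cells just outside, with a lead of 0.1 or more, had 0.697.

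In summed counts, Tshz2 stood at 1964, 1636, 1415, 1607, 1486 and 1650.0 CPM in the Tshz2/Vwc2l neurons of Control 1 to 3 and Sevoflurane 1 to 3. It lay between 6.30 and 26.0 CPM in every library of the DG, CA1 and CA3 classes. Vwc2l stood at 464, 505, 489, 443, 397 and 499 CPM in the same order, against 1.91 to 12.6 CPM in the other classes. Both genes were therefore high in every library. Tshz3 ranged from 187 CPM in Sevoflurane 2 to 298 CPM in Control 1, and the DG class held up to 48.0 CPM. Sgcd ranged from 1330.1 to 1764 CPM, while the CA3 class held up to 845 CPM. Slc17a6, the vesicular glutamate transporter of thalamic and some retrohippocampal neurons, was detected in 33.3% of the Tshz2/Vwc2l neurons, against 4.04% to 7.66% of the other classes. It was part of the gate, so this is also a description.

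Other genes that set these cells apart from the DG, CA1 and CA3 classes were taken by their fold over the highest of these classes, with 5 CPM added to both levels, and are likewise a description. Among receptors, Chrm2, a muscarinic acetylcholine receptor, averaged 86.9 CPM in the Tshz2/Vwc2l neurons and at most 3.85 CPM in another class. Npsr1, the receptor of neuropeptide S, averaged 53.5 CPM against at most 1.17 CPM. Rxfp1, a relaxin receptor, averaged 126 CPM against at most 15.1 CPM. The glutamate receptor genes Grm8 and Grik1 stood 7.08 and 6.83 times above the highest other class. Each of the 20 genes taken was higher in the Tshz2/Vwc2l neurons than in all 3 other classes in 6 of 6 libraries.

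Several of these genes encode proteins of the membrane and of cell contacts. Dpp10, an auxiliary subunit of A-type potassium channels, averaged 5781 CPM against at most 585 CPM. Sgcz, which encodes zeta-sarcoglycan, a relative of the rule gene Sgcd, averaged 2157 CPM against at most 222 CPM. Its values were 2126, 2205, 1823, 2510.2, 2287 and 1989 CPM in Control 1 to 3 and Sevoflurane 1 to 3. The receptor phosphatase gene Ptprt, the contactin gene Cntn6 and Brinp3 stood 7.81, 6.13 and 5.77 times above the highest other class. The ubiquitin ligase gene Pdzrn3 led the ranking with 240.3 CPM against at most 17.7 CPM, and its lowest value, 132 CPM, was in Sevoflurane 2.

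Cobl, an actin nucleator, averaged 184 CPM against at most 20.9 CPM, and the actin-associated genes Coro6 and Rai14 were 7.12 and 6.47 times higher. Fn1 and Bmper, which encode secreted proteins, and the carboxypeptidase gene Cpa6 were 6.63, 6.46 and 6.41 times higher. Cpa6 was high in only a small part of the cells, described below. Fn1 was also uneven, at 358 CPM in sub-cluster 3 and 3.34 CPM in sub-cluster 1 of those described below. Cux2, a transcription factor of upper cortical layers, averaged 131 CPM against at most 11.0 CPM, but stood at only 2.86 CPM in sub-cluster 3. The remaining genes of the 20 were the transcripts Gm49906 and Gm28905.

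Transcripts lower than in all 3 other classes were led by Zbtb20, a transcription factor known for its part in the identity of hippocampal neurons. It averaged 341 CPM in the Tshz2/Vwc2l neurons and 2055 CPM or more in every other class, 5.95 times below the lowest. The low level of Zbtb20 did not hold in all of the cells. Sub-cluster 9 of those described below (146 cells, 56 of them among the highest doublet scores) held 2145 CPM, against 244 CPM in the other Tshz2/Vwc2l neurons. Zeb2 stood 3.70 times, Sipa1l3 3.17 times, Galnt17 3.03 times, Lurap1l 3.01 times, Iqgap2 2.84 times, Gm44257 2.81 times and Kcnip2 2.60 times below the lowest other class. All 8 genes were lowest in the Tshz2/Vwc2l neurons in 6 of 6 libraries.

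**Figure D1:**
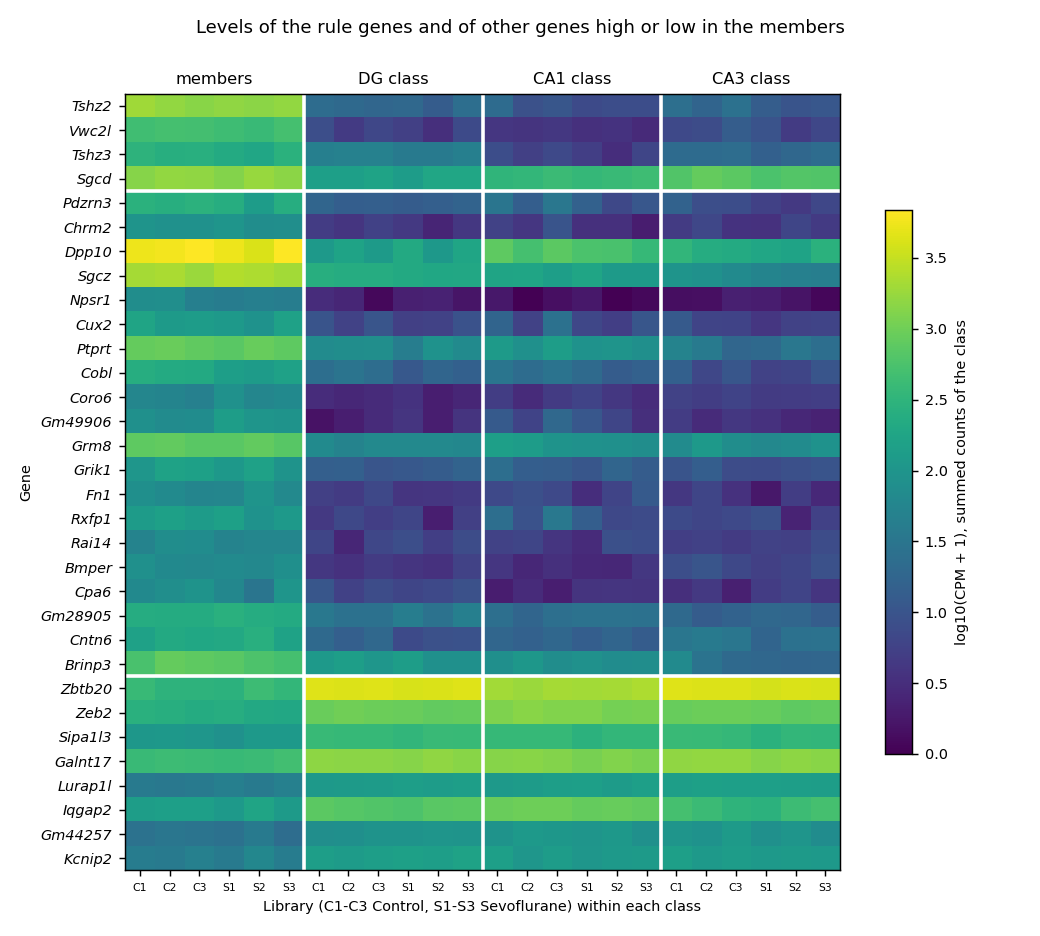
Levels as log10(CPM + 1) of the 4 rule genes (top block), 20 other genes higher (middle) and 8 genes lower (bottom) in the Tshz2/Vwc2l neurons ("members") than in the DG, CA1 and CA3 classes, with 1 column per class and library. The pattern recurs in the 3 Control (C1 to C3) and 3 Sevoflurane (S1 to S3) libraries of a class.

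The marker lists did not resolve the Tshz2/Vwc2l neurons to a named type. The near-projecting cortical neuron markers summed to 286 CPM in the Tshz2/Vwc2l neurons and 179 to 215 CPM in the other classes. Of these, Etv1 averaged 132 CPM against at most 122 CPM and Htr2c, a serotonin receptor gene, 110.4 CPM against at most 91.0 CPM, while Slc17a8 and Sla2 averaged 0.455 and 0.958 CPM, and Lypd1 and Trhr were higher in the DG class. Of the subiculum markers, Fn1 averaged 70.1 CPM against at most 6.32 CPM, while Nts, Dlk1 and Ly6g6e averaged 5.39, 2.65 and 0.928 CPM. Of the upper-layer markers, Reln, which encodes the secreted glycoprotein reelin, averaged 94.5 CPM against at most 20.3 CPM, and Rorb 51.4 CPM against at most 30.3 CPM. The layer 6 corticothalamic markers summed to 207 CPM in the Tshz2/Vwc2l neurons and 50.1 to 127 CPM in the other classes. Foxp2 averaged 48.2 CPM against at most 4.03 CPM, Tle4 152 CPM against at most 117 CPM, and Syt6 and Rprm 2.54 and 4.01 CPM. Cajal-Retzius markers summed to 6.55 CPM and mossy cell markers to 11.9 CPM. The position of the cells was not measured, so the name retrohippocampal could not be checked beyond these genes.

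The neurons were heterogeneous. Clustering of the cells by their own expression gave 22 sub-clusters of 20 to 455 cells, 17 of which held at least 5 cells in every library. The genes below helped to form the sub-clusters, so their levels, pooled over libraries with the range over libraries in brackets, are a description. Sub-cluster 1, the largest (455 cells), was led by Atp10b, Gpc6 and Npsr1. It held 1184 CPM of Vwc2l (1137 to 1286) but 105 CPM of Sgcd (97.6 to 113). Sub-cluster 4 (281 cells), led by Kcnh8, Sntb1 and Sema5b, held both genes, with 1687 CPM of Vwc2l (1541 to 1883) and 5524 CPM of Sgcd (5225 to 5973). The Sgcd ranges of these sub-clusters did not overlap.

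Tshz2 and Vwc2l, the genes that give the cells their name, were often apart. Sub-cluster 14 (133 cells), led by 9630002D21Rik, Tcerg1l and Otof, held 3251 CPM of Tshz2 (2732 to 3533) and 67.6 CPM of Vwc2l. Sub-cluster 2 held 16.1 CPM of Vwc2l with 731 CPM of Tshz2, and sub-cluster 3 ranged from 2.76 to 40.1 CPM of Vwc2l over the libraries, with 1692 CPM of Tshz2. Sub-cluster 8 (182 cells) held 625 CPM of Vwc2l, with 341 CPM of Tshz2. Sub-cluster 10 (136 cells) was low in both, with 81.8 CPM of Tshz2 and 104 CPM of Vwc2l beside 2241 CPM of Sgcd and 391 CPM of Tshz3. It also held the layer 6b markers Ccn2 at 74.3 CPM (39.5 to 103) and Cplx3 at 31.9 CPM. The layer 6b marker Nxph4 was low in sub-cluster 10, at 5.00 CPM, but stood at no more than 0.652 CPM in any other sub-cluster. Nr4a2 did not single out sub-cluster 10, at 78.1 CPM, below the 217 CPM of Nr4a2 in sub-cluster 2. Sub-cluster 20 held 28.4 CPM of Cplx3.

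Cortical markers split the sub-clusters further. Sub-clusters 1 and 12 held 415 and 470.3 CPM of Cux2, and 5262 and 6674 CPM of Sgcz. Sub-cluster 3 (321 cells) was led by Stac, Ndst4 and Fn1, with 358 CPM of Fn1 (321 to 406), 510.3 CPM of the transcription factor gene Etv1 (414 to 624) and 2.86 CPM of Cux2. Sub-cluster 8 was led by Cpa6, Reln and Lef1, with 997 CPM of Reln (710.1 to 1141) and 285 CPM of Lef1 (132 to 352). The ranges show these genes in every library. Cpa6 stood at 865 CPM in sub-cluster 8 and at 8.46 CPM in the other Tshz2/Vwc2l neurons. Sub-cluster 13 (133 cells) held 2337 CPM of Zfpm2, a corticothalamic transcription factor gene, and 219 CPM of Foxp2. The layer 6 corticothalamic list did not single it out. Foxp2 was higher in sub-cluster 20, at 374 CPM. Tle4 stood at 341 CPM in sub-cluster 13 and 605 CPM in sub-cluster 4. Syt6 and Rprm were low in sub-cluster 13, at 10.1 and 6.41 CPM, and the upper-layer marker Rorb stood there at 206 CPM. Sub-cluster 15 (122 cells) held 2479.8 CPM of Ntng1, which encodes the axonal membrane protein netrin-G1.

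A few small sub-clusters carried genes of other lineages. Sub-cluster 16 (85 cells, median 4593 UMIs) held 1244 CPM of Vcan and 552 CPM of Pdgfra, markers of oligodendrocyte precursors, beside 413 CPM of Slc17a7. The gate required at least 2 UMIs of Slc17a7 and Slc17a6 together, so at this depth the Slc17a7 level was partly set by the gate. Sub-cluster 16 also held 2595 CPM of Adarb2, a gene of the interneuron marker list, and 2220 CPM of Nxph1. Sub-cluster 17 (75 cells, median 4914 UMIs) held 760.1 CPM of Flt1 and 694 CPM of Rgs5, vascular markers, and 31 of its cells were among the highest doublet scores, as were 56 of 146 cells of sub-cluster 9. Sub-cluster 18 (55 cells, median 5532 UMIs) was led by Ebf2, Ebf3 and Corin, with 1717 CPM of Zfhx3, 313 CPM of Slc17a6 and 8.87 CPM of Tshz3. It held 1, 1 and 0 cells in Control 1 to 3 and 15, 22 and 16 cells in Sevoflurane 1 to 3. The 0 of 623 cells in Control 3 allows a share of up to 0.482%, by counting error alone.

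**Figure D2:**
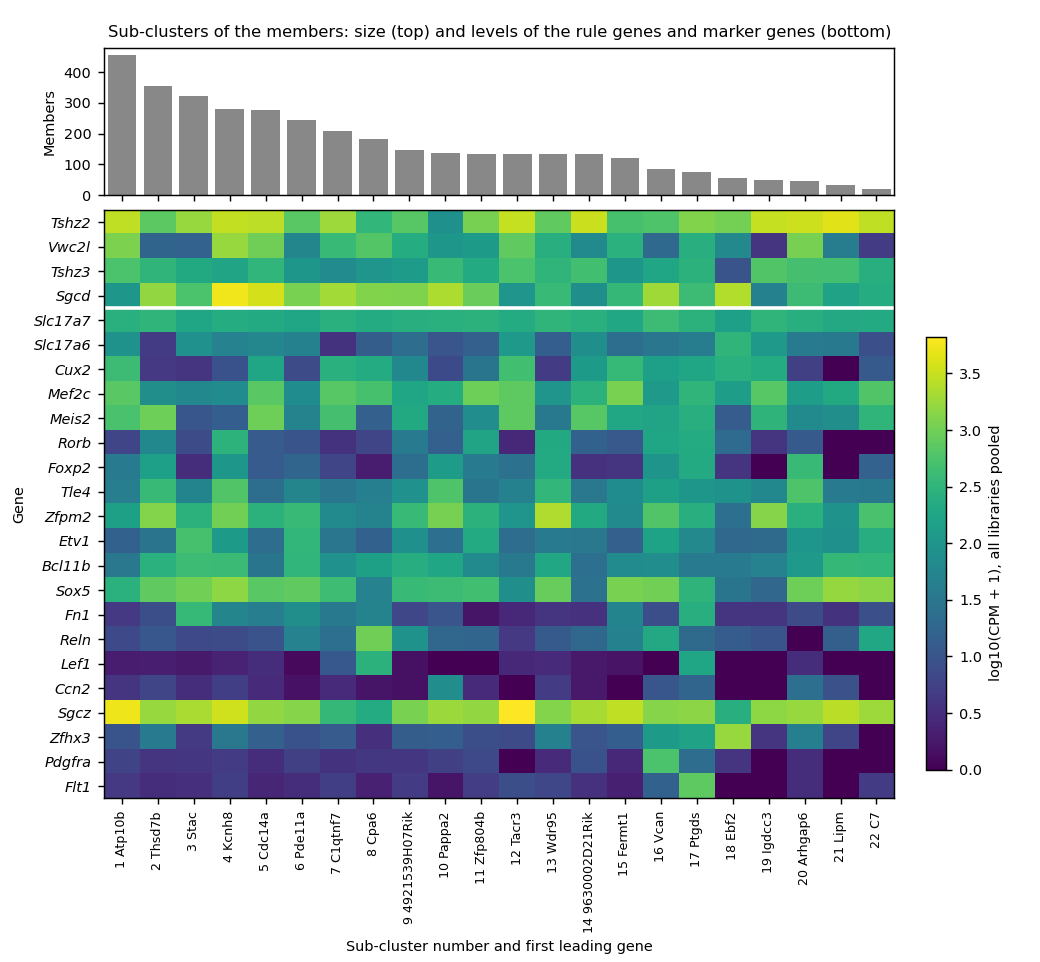
Number of cells (top) and level as log10(CPM + 1), pooled over the 6 libraries (bottom), of the 4 rule genes and further genes in the 22 sub-clusters, named by number and first leading gene. Sgcd is low in sub-clusters 1, 12 and 14, where Tshz2 is high, and Vwc2l is low in sub-clusters 2, 3 and 14.

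The share of the Tshz2/Vwc2l neurons among excitatory barcodes was compared between the groups. It was 28.8%, 22.2% and 27.7% in Control 1 to 3 and 22.0%, 15.2% and 27.4% in Sevoflurane 1 to 3. The groups overlapped, with means of 26.2% ± 3.54 and 21.5% ± 6.09 (SD, n = 3 each), a difference of -4.71 percentage points. The two-sided exact permutation test gave p = 0.2, and 0.1 is the smallest p that 3 against 3 libraries allow. Without Sevoflurane 1, the library from female tissue, the difference was -4.95 points (exact permutation p = 0.4). Without Sevoflurane 2, the lowest library, it was -1.55 points (exact permutation p = 0.4), and without Sevoflurane 3 it was -7.63 points. For the median depth of these cells the exact permutation test gave p = 0.8, between a Control mean of 10052 ± 602 UMIs and a Sevoflurane mean of 9762 ± 1072 UMIs (SD, n = 3 each).

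The make-up of the Tshz2/Vwc2l neurons varied between libraries. Sevoflurane 2 had the lowest share of sub-cluster 5, led by Cdc14a and Tcf7l1, with 2.25% of its cells against 7.54% to 9.21% elsewhere. It also had the lowest share of sub-cluster 2, with 4.50% against 7.73% to 13.6%. Its shares of sub-clusters 3, 4 and 6, at 13.2%, 12.5% and 10.5%, were above those of the other libraries. No test is given for sub-cluster sizes, since the genes that formed the sub-clusters may differ between the groups.

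**Figure D3:**
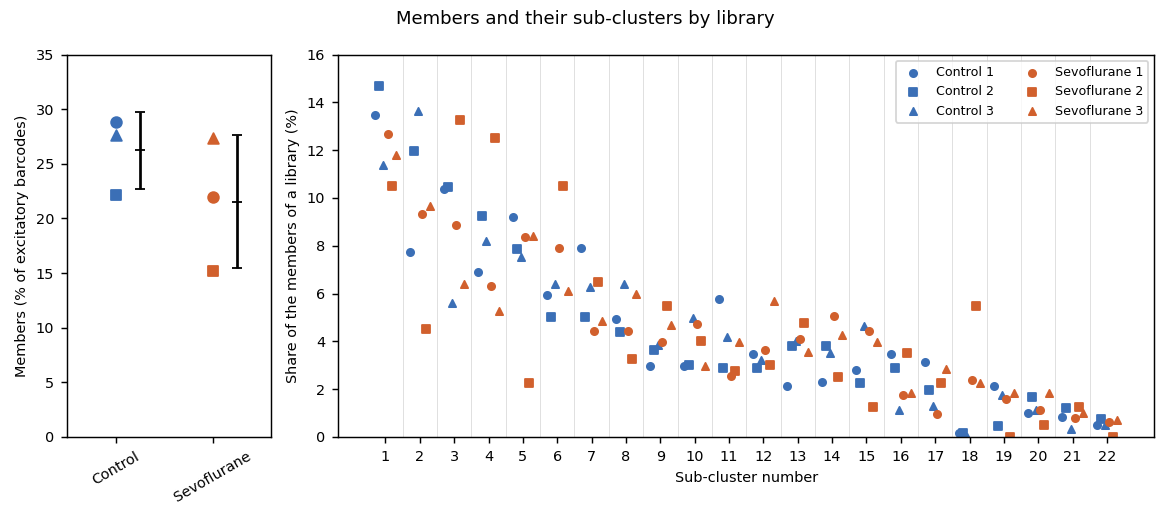
Left: Tshz2/Vwc2l neurons as a percent of excitatory barcodes in each library, with mean and SD of each group beside the points (n = 3). Right: percent of these neurons of a library in each of the 22 sub-clusters, where Sevoflurane 2 is lowest in sub-clusters 2 and 5, and sub-cluster 18 holds 15, 22 and 16 cells of Sevoflurane 1 to 3 against 1, 1 and 0 of Control 1 to 3.

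Expression after sevoflurane was compared on counts summed over the Tshz2/Vwc2l neurons of each library, with the quasi-likelihood test of edgeR and Benjamini-Hochberg (BH) adjustment. Levels in this comparison are CPM with TMM factors, which scale the libraries to a common composition. Of 14617 genes tested, 123 (0.841%) passed an adjusted p of 0.05, 36 higher (0.246%) and 87 lower (0.595%) with sevoflurane. All 123 had groups that did not overlap, as did 19.8% of all genes tested. The rule gene Rfx3 was 1 of them, and nothing is read from it. With library totals in place of TMM, the median log2 fold change of all genes moved from 0.017 to 0.13, and 28 genes were higher and 12 lower. DESeq2 called 18 higher and 331 lower, and gives no adjusted p for many genes of low counts.

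The count of called genes rested on all 6 libraries. Without Sevoflurane 1, the library from female tissue, 0 genes passed in edgeR, although 1760 had an unadjusted p under 0.05. Without Control 1, Control 2 or Control 3, 2, 1 and 3 genes passed, and without Sevoflurane 2 or Sevoflurane 3 42 and 65. The 29 called genes named here kept their sign in each of these 6 fits, and 1, 1 and 1 of them passed without Control 1, 2 or 3 and 16 and 17 without Sevoflurane 2 or 3. Without Sevoflurane 1 their adjusted p lay between 0.0712 and 0.129 (edgeR). In that library sex and exposure cannot be told apart. In sums over cells, a change in the make-up of the cells and a change within them cannot be told apart either. For each named gene the number of the 17 sub-clusters present in every library that were higher or lower with sevoflurane is therefore given. These counts are a description, since the sub-clusters come from the same 6 libraries and are not replicates. Such counts were not made over all genes. Sub-clusters 9, 16 and 17, described above, are among the 17. Sub-cluster 15 held only 5 cells in Sevoflurane 2, so the direction of genes of low level rests on few counts there.

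The lower genes were longer. The median genomic span was 208 kb for the lower genes, 50.9 kb for the higher genes and 27.1 kb for all genes tested. Across genes, which are not independent replicates, the rank correlation of span with log2 fold change was -0.215. With a smooth trend of span removed from each library, 59 genes passed, 31 higher and 28 lower. The part of span in the results was not tested further. Spans and positions are from the GENCODE M21 annotation of GRCm38, matched by gene identifier. The build behind the counts is not given in the sources used here.

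Among the 12 largest rises of called genes with at least 20 CPM, 5 were long intergenic RNAs. 2810049E08Rik (ENSMUSG00000100891, chromosome 13 from 83891208 to 83928710) stood at 24.2, 20.8 and 23.4 CPM in Control and 44.7, 48.5 and 67.4 CPM in Sevoflurane. The groups did not overlap (1.24, SE 0.16, edgeR BH-adjusted p = 0.0216, on the log2 scale), and the RNA was higher in 16 of 17 sub-clusters. In the DG, CA1 and CA3 classes it rose by 0.96, 1.05 and 1.21. Gm46102, Gm31282, Gm9866 and A330008L17Rik rose by 1.13, 1.01, 0.91 and 0.69 on the log2 scale. They were higher in 15, 17, 17 and 14 of 17 sub-clusters, and their log2 fold changes in the DG, CA1 and CA3 classes were also positive. Overlapping transcripts can share reads with such RNAs, and their counts are uncertain to that extent.

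Protein-coding genes that rose included a pair of imprinted, paternally expressed genes, Zdbf2 and Mest. Zdbf2 stood at 37.4, 32.1 and 39.4 CPM in Control and 72.6, 77.0 and 54.3 CPM in Sevoflurane. Its groups did not overlap (0.90, SE 0.14, edgeR BH-adjusted p = 0.0305), and it was higher in 16 of 17 sub-clusters. Mest, which encodes a protein of the hydrolase fold family, went from 21.8 ± 1.45 to 34.7 ± 2.71 CPM (SD, n = 3 each), a log2 fold change of 0.66 with an SE of 0.11. It was higher in 15 of 17 sub-clusters.

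Sema3a, a secreted axon guidance cue, stood at 16.7, 16.7 and 15.4 CPM in Control and 35.8, 31.3 and 27.1 CPM in Sevoflurane (0.95, SE 0.13, edgeR BH-adjusted p = 0.0219). The groups did not overlap, but only 9 of 17 sub-clusters were higher. Sub-cluster 18, with 1, 1 and 0 cells in Control and 15, 22 and 16 cells in Sevoflurane, held 700.4 CPM of Sema3a. Over the sub-clusters present in every library, which leave it out, the log2 fold change was 0.38 (edgeR BH-adjusted p = 0.458).

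The remaining coding genes among the largest rises were Klhl10, Pcolce2, Uvssa and Catspere2. Klhl10, an adaptor of ubiquitin ligases, stood at 13.7, 13.6 and 15.4 CPM in Control and 25.7, 26.4 and 25.9 CPM in Sevoflurane (0.87, SE 0.11, edgeR BH-adjusted p = 0.0216). Pcolce2, an enhancer of procollagen processing, rose by 0.80, and Uvssa, a factor of transcription-coupled DNA repair, by 0.60 on the log2 scale. Catspere2, a gene of a sperm calcium channel, rose by 0.56, and near-identical relatives make its counts uncertain. The edgeR BH-adjusted p of these genes lay between 0.0216 and 0.0470, and they were higher in 16, 17, 16 and 16 of 17 sub-clusters. Each of them was also positive in the DG, CA1 and CA3 classes, where Klhl10 rose by 0.94, 0.43 and 0.62. Epha10, an Eph receptor, was also called and stood at 136, 114 and 122 CPM in Control and 193, 171 and 172 CPM in Sevoflurane (0.53, SE 0.09, edgeR BH-adjusted p = 0.0373).

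The largest fall was in Ttr, which encodes the thyroid hormone carrier made by choroid plexus epithelium. It stood at 101, 43.4 and 308 CPM in Control and 1.44, 1.94 and 0.558 CPM in Sevoflurane (-7.00, SE 0.92, edgeR BH-adjusted p = 0.0216). It was lower in 17 of 17 sub-clusters, and its log2 fold changes in the DG, CA1 and CA3 classes were -7.05, -7.48 and -6.76. The other choroid plexus markers Folr1, Clic6 and Kl averaged 0.384, 0.998 and 5.22 CPM in these neurons. The part of free RNA from choroid plexus cells in the Ttr counts was not tested.

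Sav1, a scaffold protein of the Hippo kinase pathway, stood at 28.6, 42.1 and 34.0 CPM in Control and 14.8, 15.5 and 14.7 CPM in Sevoflurane (-1.22, SE 0.15, edgeR BH-adjusted p = 0.0216). The groups did not overlap, and it was lower in 17 of 17 sub-clusters. Wwc1, also called KIBRA, another protein of the Hippo pathway that is linked to memory, fell from 101 ± 10.2 to 56.9 ± 10.2 CPM (SD, n = 3 each), a log2 fold change of -0.85, and was lower in 15 of 17 sub-clusters. Its log2 fold changes in the DG, CA1 and CA3 classes were -0.40, -0.62 and -0.46. Cobl, the actin nucleator that set these neurons apart by level, stood at 250.1, 235 and 224 CPM in Control and 137, 120.2 and 154 CPM in Sevoflurane (-0.78, SE 0.10, edgeR BH-adjusted p = 0.0216). It was lower in 15 of 17 sub-clusters.

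Other falls were in Banp, a nuclear matrix protein gene (-0.84), Plxdc2, a membrane receptor gene (-0.77), Bcl2, which blocks apoptosis (-0.76), and Lhfp (-0.75). Serinc2, a serine incorporator family gene, had a log2 fold change of -0.73, and Csgalnact1, an enzyme of chondroitin sulfate synthesis, of -0.72. The edgeR BH-adjusted p of these 6 genes lay between 0.0216 and 0.0373. They were lower in 15, 16, 13, 14, 13 and 14 of 17 sub-clusters.

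**Figure D4:**
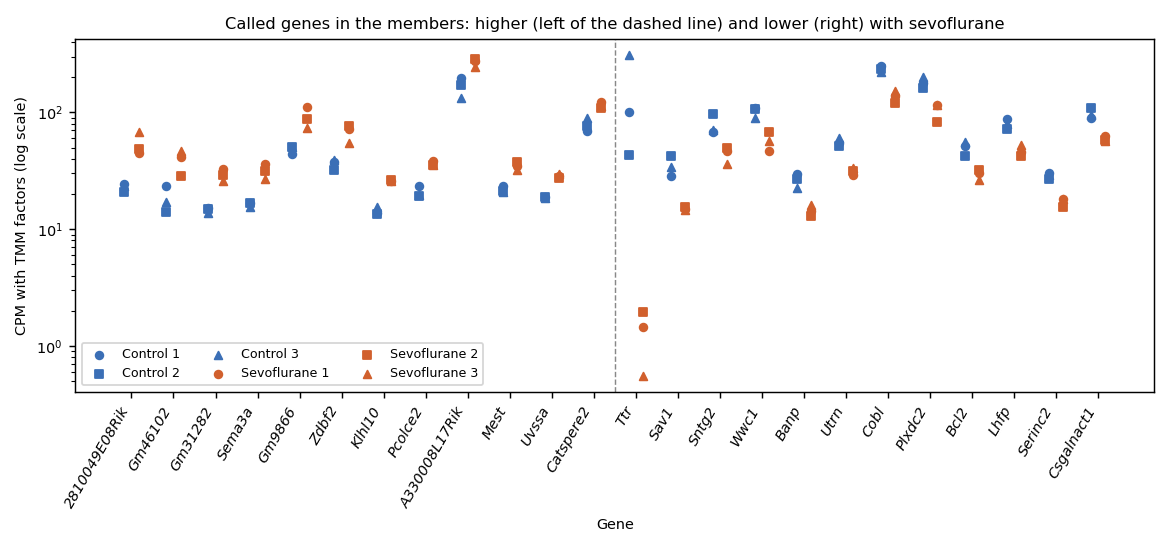
Level of the 12 largest rises and 12 largest falls among called genes with at least 20 CPM in the Tshz2/Vwc2l neurons, as CPM with TMM factors on a log axis, with 1 point per library. The Control and Sevoflurane libraries of each gene do not overlap, and Ttr, at 101, 43.4 and 308 against 1.44, 1.94 and 0.558 CPM, shows the widest gap.

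The gene lists below are read against all genes tested, of which 53.2% had a positive and 46.8% a negative log2 fold change and 13.7% an unadjusted p under 0.05 in edgeR. Without TMM 72.2% were positive and the median of all genes was 0.13, so each list's median is given on both scalings. DESeq2 called 349 of 14616 genes, 331 of them lower, and its counts within lists are read beside these.

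The dystrophin-associated complex, to which the rule gene Sgcd belongs, links the cytoskeleton to the extracellular matrix. Of 13 further genes of the complex tested, 0 were higher and 2 lower in edgeR, where 0.595% of all genes were lower. Their median log2 fold change was -0.051, against 0.017 for all genes, and 0.064 without TMM. DESeq2 called 3 of the 13 genes lower, Dtna, Sntg2 and Utrn. Utrn, which encodes the dystrophin homologue utrophin, stood at 54.2, 51.8 and 59.9 CPM in Control and 29.1, 31.7 and 33.3 CPM in Sevoflurane (-0.81, SE 0.10, edgeR BH-adjusted p = 0.0216). Sntg2, a syntrophin adaptor, stood at 67.6, 97.4 and 70.6 CPM in Control and 46.7, 49.4 and 36.0 CPM in Sevoflurane (-0.85, SE 0.16, edgeR BH-adjusted p = 0.0483). Both genes had groups that did not overlap, and they were lower in 15 and 13 of 17 sub-clusters. Dmd itself had a log2 fold change of -0.051 and Dag1, dystroglycan, of -0.049 (edgeR BH-adjusted p = 0.834 and 0.839). The sarcoglycans Sgcb, Sgce and Sgcz had values of 0.10, -0.17 and 0.029, and Sgca, at 0.0436 CPM, was too low to be tested.

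Synaptic and channel genes were described by lists. Of 24 synaptic adhesion genes 1 was lower, Lrrtm3, a leucine-rich repeat protein that binds neurexins, and the list median was -0.066 (0.046 without TMM). Lrrtm3 stood at 533, 634 and 577 CPM in Control and 343, 398 and 341 CPM in Sevoflurane (-0.69, SE 0.09, edgeR BH-adjusted p = 0.0216). Of 22 voltage-gated potassium channel genes 1 was lower, Kcnd3, a pore subunit of A-type channels (list median -0.21, -0.10 without TMM). Kcnd3 stood at 336, 341 and 340.4 CPM in Control and 239, 242 and 246 CPM in Sevoflurane (-0.48, SE 0.07, edgeR BH-adjusted p = 0.0216). Of 21 presynaptic release genes 1 was lower, Sv2b, a synaptic vesicle glycoprotein (list median -0.18, -0.066 without TMM). Sv2b stood at 503, 481 and 493 CPM in Control and 345, 335 and 364 CPM in Sevoflurane (-0.50, SE 0.07, edgeR BH-adjusted p = 0.0219). Lrrtm3, Kcnd3 and Sv2b were lower in 15, 13 and 16 of 17 sub-clusters. DESeq2 called 1, 4 and 5 genes of these lists, all lower, as were 331 of the 349 genes it called in all.

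Receptors and channels on which volatile anaesthetics are known to act had no called gene in edgeR. Of 13 genes of GABA-A receptors and their scaffold gephyrin, 12 had negative values and 3 an unadjusted p under 0.05, with a median of -0.069. Without TMM 5 were negative, with a median of 0.044, and DESeq2 called 1 lower. Of 6 NMDA receptor genes 3 had an unadjusted p under 0.05 (median -0.20, -0.091 without TMM). Grin2a stood at 1881, 1899 and 1942 CPM in Control and 1443, 1586 and 1515 CPM in Sevoflurane (-0.33, SE 0.07, edgeR BH-adjusted p = 0.0656), and its groups did not overlap. Grin2b had a log2 fold change of -0.27 (edgeR BH-adjusted p = 0.138), and DESeq2 called both genes. Of 8 AMPA and kainate receptor genes, 9 two-pore potassium and HCN channel genes and 14 calcium channel genes, 2, 2 and 6 had an unadjusted p under 0.05, beside 13.7% of all genes. Their medians were -0.14, -0.23 and -0.16, and -0.024, -0.12 and -0.050 without TMM, and DESeq2 called 1, 1 and 2 lower.

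Stress and metabolic lists likewise held no gene called by edgeR. Of 22 unfolded protein response genes 18 were negative, with a median of -0.31 (-0.20 without TMM), 12 had an unadjusted p under 0.05, beside 13.7% of all genes, and DESeq2 called 2. Hspa5, the main endoplasmic reticulum chaperone, stood at 41.4, 45.1 and 48.4 CPM in Control and 30.9, 33.0 and 24.3 CPM in Sevoflurane (-0.63, SE 0.13, edgeR BH-adjusted p = 0.0631). These groups did not overlap, but the gene did not pass over all genes tested. Of 23 sterol synthesis genes 20 were positive (median 0.30, 0.42 without TMM, 7 with an unadjusted p under 0.05). Of 26 immediate early genes 23 were positive (median 0.35, 0.46 without TMM, 6 with an unadjusted p under 0.05). Fos, an activity-induced transcription factor, stood at 2.36, 2.19 and 4.34 CPM in Control and 9.49, 13.3 and 3.68 CPM in Sevoflurane, and its groups overlapped (edgeR BH-adjusted p = 0.194). Of 79 ribosomal protein genes 76 were positive (median 0.18, 0.30 without TMM), and of 92 nuclear respiratory chain genes 78 (median 0.16, 0.27 without TMM). Of these, 3 and 6 had an unadjusted p under 0.05, a smaller share than the 13.7% of all genes. DESeq2 called 0 genes of the last 4 lists, with an adjusted p for 2, 3, 33 and 31 of their genes.

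Of 26 projection neuron transcription factor genes 19 were negative (median -0.17), and without TMM 16 (median -0.050). Of the list, 9 had an unadjusted p under 0.05, and 0 were called by edgeR and 2, Nfia and Tox, by DESeq2. Lists of 20 bone morphogenetic protein genes, 18 glucocorticoid response genes, 13 heat shock genes and 18 clock genes had medians of -0.12, 0.064, 0.14 and -0.014. Without TMM these were -0.0083, 0.18, 0.25 and 0.10. In these 4 lists 2, 7, 1 and 7 genes had an unadjusted p under 0.05, 0 were called by edgeR, and DESeq2 called 1, the clock gene Npas2, lower.

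Markers of other cell types were measured in the same sums. Endothelial markers summed to 11.2 to 55.6 CPM in Control and 4.85 to 45.1 CPM in Sevoflurane. Oligodendrocyte precursor markers summed to 20.3 to 47.2 CPM in Control and 27.0 to 58.1 CPM in Sevoflurane, and astrocyte markers to 66.4 to 96.5 CPM in Control and 51.9 to 88.3 CPM in Sevoflurane. These ranges overlapped, as did those of oligodendrocyte, mural and interneuron markers. Microglial markers summed to 48.3 to 52.3 CPM in Control and 36.2 to 43.3 CPM in Sevoflurane and did not overlap, with 4 of 4 tested markers negative. Choroid plexus markers, at 46.9 to 305 CPM in Control and 5.59 to 8.45 CPM in Sevoflurane, did not overlap either, but this sum was mostly Ttr, since Folr1, Clic6 and Kl were low. The part of these cells in the results was not tested. Of 23 tested markers of glial and vascular cells, 21 were negative, 1 had an unadjusted p under 0.05, and 0 were called by edgeR. DESeq2 called 0 and gave an adjusted p for 2 of them.

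Whether an effect was particular to the Tshz2/Vwc2l neurons was asked by a test of the difference itself, the interaction of class and exposure. In it the log2 fold change in these neurons was set against the mean of those in the DG, CA1 and CA3 classes, where 2.33%, 1.34% and 0.426% of genes tested were called. Of 15864 genes, 15 (0.0946%) passed in edgeR, 9 (0.0567%) with a more positive and 6 (0.0378%) with a more negative change in the Tshz2/Vwc2l neurons. With the span trend removed these were 8 and 10, and without Control 3 7 genes passed. The falls of Ttr, Sav1, Cobl, Lrrtm3 and Kcnd3 did not pass this test (edgeR BH-adjusted p between 0.750 and 0.979), and their log2 fold changes in the DG, CA1 and CA3 classes were also negative. The falls of Wwc1, Sntg2, Banp, Utrn, Csgalnact1, Lhfp, Plxdc2, Serinc2, Bcl2 and Sv2b did not pass it either (edgeR BH-adjusted p between 0.106 and 0.941). Apart from 0.41 for Sntg2 and 0.20 for Bcl2 in the DG class, their values in the other classes were negative, the smallest being -0.0087 for Serinc2 in the DG class. Nor did the rises of 2810049E08Rik, Gm46102, Gm31282, Gm9866, A330008L17Rik, Mest, Klhl10, Pcolce2, Uvssa and Catspere2 pass the interaction test (edgeR BH-adjusted p between 0.415 and 0.903). These rises were also positive in the other classes, some only slightly. Mest had 0.12, 0.23 and 0.19 in the DG, CA1 and CA3 classes (edgeR BH-adjusted p = 0.821, 0.691 and 0.532). Gm46102 had 0.081 in the CA3 class (SE 0.40).

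Epha10 passed in all 15 alternative fits. Its log2 fold changes were 0.53 in the Tshz2/Vwc2l neurons and 0.13, -0.54 and -0.51 in the DG, CA1 and CA3 classes (difference 0.86, SE 0.11, edgeR BH-adjusted p = 0.000915). The difference in Epha10 lay between 0.74 and 0.98 in the alternatives. Within the Tshz2/Vwc2l neurons Epha10 was higher with sevoflurane in 15 of 17 sub-clusters. Sgcz, the sarcoglycan that set these neurons apart by level, had log2 fold changes of 0.029 here and -0.39, -0.33 and -0.92 in the DG, CA1 and CA3 classes (difference 0.59, SE 0.09, edgeR BH-adjusted p = 0.00171). It passed in 13 of 15 alternatives, and in neither the one with a lead of at least 0.4 nor the one without high doublet scores. In the Tshz2/Vwc2l neurons the Sgcz groups overlapped, at 2179.7, 2347 and 1896 CPM in Control and 2456, 2165 and 1932 CPM in Sevoflurane, and 12 of 17 sub-clusters were higher.

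Ntng1 had log2 fold changes of -0.14 here and -0.75, -0.93 and -0.69 in the DG, CA1 and CA3 classes (difference 0.67, SE 0.09, edgeR BH-adjusted p = 0.00111). With equal numbers of cells per sub-cluster and library, a setting added with the values already known, the difference was 0.34 (edgeR BH-adjusted p = 0.249). Ntng1 was lower in 15 of 17 sub-clusters. Zdbf2 had 0.90 here against 0.35, 0.61 and 0.10 (difference 0.58, SE 0.10, edgeR BH-adjusted p = 0.00840), and with equal numbers the difference was 0.47 (edgeR BH-adjusted p = 0.234). Zdbf2 passed in 10 of 15 alternatives, and not without Control 2, Control 3 or Sevoflurane 3. With a lead of at least 0.4 its difference was 0.35 (edgeR BH-adjusted p = 0.518).

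Sema3a and Eps8, a gene of an actin-capping signalling protein, had differences of 1.24 and 1.34 (SE 0.18 and 0.19, edgeR BH-adjusted p = 0.00171 and 0.00171). Eps8 stood at 23.4, 19.7 and 16.1 CPM in Control and 22.3, 60.8 and 30.6 CPM in Sevoflurane, with overlapping groups, and was higher in 6 of 17 sub-clusters. Sub-cluster 18 held 1209 CPM of Eps8. Over the sub-clusters present in every library, also added with the values known, the difference was 0.66 for Sema3a and 0.21 for Eps8 (edgeR BH-adjusted p = 0.471 and 0.799).

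Among more negative changes, Slc16a7, a monocarboxylate transporter that takes lactate and pyruvate into neurons, stood at 144, 146 and 153 CPM in Control and 96.2, 87.2 and 105 CPM in Sevoflurane (-0.61, SE 0.09, edgeR BH-adjusted p = 0.0223). Its log2 fold changes were -0.30, -0.22 and 0.039 in the DG, CA1 and CA3 classes (difference -0.44, SE 0.07, edgeR BH-adjusted p = 0.00629), which did not pass without Control 3 or Sevoflurane 1. Slc16a7 was lower in 15 of 17 sub-clusters. The potassium channel gene Kcnk10, the anoctamin gene Ano3 and Shisa4 had differences of -0.48, -0.45 and -0.58 (edgeR BH-adjusted p = 0.0157, 0.0230 and 0.0243). These 3 genes did not pass in the Tshz2/Vwc2l neurons alone, where their log2 fold changes were -0.32, -0.50 and -0.29. Kcnk10 was lower in 8 of 17 sub-clusters and higher in 9, Shisa4 was lower in 10 and higher in 7, and Ano3 was lower in 14. Their differences passed in 10 of 15, 12 of 15 and 7 of 15 alternatives. Kcnk10 did not pass without Control 1 or without any 1 of the Sevoflurane libraries, Ano3 not without Control 3 or Sevoflurane 2, and Shisa4 not without Control 1, Control 3, Sevoflurane 1 or Sevoflurane 3.

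**Figure D5:**
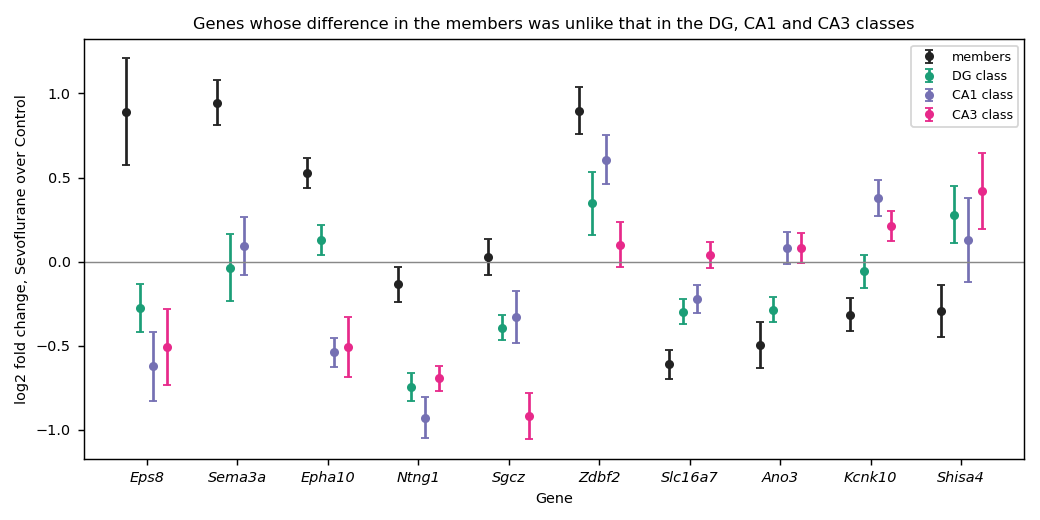
Log2 fold change of Sevoflurane over Control, with SE, of the 10 genes named from the interaction test, fitted separately in the Tshz2/Vwc2l neurons ("members") and in the DG, CA1 and CA3 classes (Sema3a was too low to be fitted in CA3). Epha10 is at 0.53 in the Tshz2/Vwc2l neurons and -0.54 in CA1, and Sgcz at 0.029 against -0.92 in CA3.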

How the data were processed

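Raw UMI counts per gene and barcode were deposited. The file headers name Cell Ranger 6.1.1, and the submitters' processing notes list CASAVA 1.8, Cell Ranger and Seurat without saying what each did. No source used here gives the genome build, annotation or strand setting. Free RNA was not corrected. Results for a few genes are not reported here.

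The cells, gene lists and tests were chosen with earlier results of these data known. Named genes followed a rule on size: called genes with at least 20 CPM, the 12 largest each way, called genes of the function lists, and up to 6 each way for the interaction. Sums per library were tested with edgeR 4.0.16 in R 4.3.3 (quasi-likelihood, TMM, filterByExpr, BH). SEs were derived from the log2 fold change and its F statistic. The interaction had the library as a block. Scripts were tested on simulated data. Levels between classes are CPM of summed counts without TMM. Sub-clusters came from scanpy 1.11.5 (2000 variable genes, 30 components, 15 neighbours), without integration, at Leiden resolution 0.5, which was set after looking at the data. Doublets were scored with Scrublet and kept. At 0.8% per 1000 barcodes, 313 Tshz2/Vwc2l neurons (8.63%) had the highest scores. Of 31253 gene identifiers, 31184 matched GENCODE M21.

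The alternatives were DESeq2 1.42.0, no filter, no TMM, a replicate block, removal of a span trend, other limits on lead, UMIs and doublets, balanced make-up and leaving out each library.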

Additional observations from a re-analysis of the deposited data

Results flagged for a closer look

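In these 10 genes the difference after sevoflurane in the Tshz2/Vwc2l neurons was unlike that in the DG, CA1 and CA3 classes by the interaction test of edgeR, with BH-adjusted p from 0.000915 to 0.0243. The more positive differences on the log2 scale were 1.34 for Eps8, 1.24 for Sema3a, 0.86 for Epha10, 0.67 for Ntng1, 0.59 for Sgcz and 0.58 for Zdbf2. The more negative differences were -0.58 for Shisa4, -0.48 for Kcnk10, -0.45 for Ano3 and -0.44 for Slc16a7. With equal numbers of cells per sub-cluster and library, 2 of the 10, Epha10 and Sgcz, also passed. Groups of 3 libraries are too small for a test of outlying libraries.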

How the results depend on the processing

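The 123 called genes became 349 with DESeq2, 334 without the filter on low counts, 40 without TMM, 59 with the span trend removed and 73 over sub-clusters present in every library. Leaving out each library gave 0 to 65. Same-numbered libraries did not vary together (correlations of -0.140, -0.0710 and -0.0119), and the fit with a replicate block gave 1. The cause of these shifts was not tested. The 15 interaction genes became 24 with DESeq2, 204 without the filter, 4 with equal numbers per sub-cluster and library, 7 to 18 with each library left out, and 17 with a replicate block. The difference in share was -7.63 to -1.55 percentage points without each library and kept its sign in all alternatives. The log2 fold change of Eps8 in the Tshz2/Vwc2l neurons turned to -0.27 over sub-clusters present in every library and to -0.48 with equal numbers per sub-cluster, where its interaction was -0.027. Ntng1 turned to 0.034 with the span trend removed, and Sgcz to -0.052 with equal cells per library, with -0.065 to 0.11 when each library was left out. These 3 genes were not called in the Tshz2/Vwc2l neurons. Depth limits genes of low level, most in Sevoflurane 2 with 3906075 UMIs.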
